A study of Rattus norvegicus with 17 samples.

Results

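The growth differentiation factor Gdf15, the activin subunits Inhba and Inhbb, the bone morphogenetic proteins Bmp2, Bmp4, Bmp6 and Bmp10, myostatin (Mstn) and the secreted antagonists follistatin (Fst) and follistatin-like 3 (Fstl3) were followed in cultured rat heart cells. They are 10 of the 14506 genes that the arrays named, each read by 1 probe set. Gdf15 was chosen by its measured decrease, among the largest on the arrays, with plasma labelled as after nocturnal hemodialysis relative to control plasma. The other 9 were chosen as its relatives in the transforming growth factor beta superfamily and their inhibitors. The levels of Gdf15 in that comparison are therefore a description, and no test is given for it in any comparison that uses those arrays.

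The cells were ventricular myocytes of neonatal Sprague-Dawley rats, labelled as 5-day-old cultures. The 4 treatments were phenylephrine, which stimulates alpha-adrenergic receptors and is a usual hypertrophic stimulus (2 arrays), uremic plasma taken after nocturnal hemodialysis, or NHD, which is dialysis given overnight (6 arrays), uremic plasma taken before NHD (6 arrays), and control plasma (3 arrays). Uremic plasma, from people with kidney failure, was given at 10%. The sample titles do not say whether before and after refer to a single dialysis session or to a course of NHD. The labels leave out how much control plasma was given and what the phenylephrine cultures grew in. They call every replicate biological, but do not say whether replicates came from separate cultures or donors. Each p-value rests on the variation within groups, and how much of that came from donors, cultures or technique is not known.

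Ligands of this superfamily are secreted as pairs of chains cut from a longer precursor. They bind receptor kinases of type I and type II, which phosphorylate Smad proteins. Activins and myostatin act mainly through Smad2 and Smad3, and bone morphogenetic proteins (BMPs) mainly through Smad1, Smad5 and Smad9, which switch on genes such as the Id family. Follistatin and Fstl3 trap activins and myostatin before they reach a receptor. Gdf15 is a distant member that signals through Gfral and the kinase Ret in the hindbrain, and its own gene is induced by cell stress in many tissues, the heart included.

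Values are log2 expression values, on which 1 unit is a doubling, and a probe set's level was compared only with its own level on other arrays. All 29214 probe sets of the table were tested. Cardiac myocyte markers were high on all 17 arrays, with Tnnt2 (troponin T) at 13.39 to 13.65, and the mean of 10 such markers lay between 12.54 and 13.14. Markers of fibroblasts were present as well and varied widely, their mean over 10 genes running from 7.32 to 10.03. The before NHD arrays were not alike. The first principal component of all genes held 45.7% of the variance, and on it before replicate 5 (-66.50) lay among the control arrays (-72.24 to -50.31). Before replicate 4 (16.63) lay within the range of the after NHD arrays (15.15 to 37.20), and before replicate 6 (40.85) lay beyond it on the side away from the controls. The phenylephrine arrays lay at 33.64 and 35.66. Results that use before NHD arrays are given below also without before replicates 4, 5 or 6 where that changes them. In RNA of a whole culture, fewer cells of a type and less RNA per cell cannot be told apart.

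Gdf15 was highest with control plasma, variable with before NHD plasma, and lowest with after NHD plasma. It measured 9.81 and 10.27 log2 units in phenylephrine cultures. In after NHD cultures the lowest, median and highest values were 8.85, 9.10 and 9.50, in before NHD cultures they were 9.17, 11.84 and 13.05, and the 3 control cultures had 12.70, 12.74 and 12.82. Both the phenylephrine and the after NHD arrays lay below every control array, and both phenylephrine arrays lay above every after NHD array. The before NHD arrays overlapped with all 3 other groups: replicates 4 and 6 (9.17 and 9.96) were near the after NHD and phenylephrine values, replicates 1, 2 and 3 (11.49, 12.19 and 12.53) were between these and the controls, and replicate 5 (13.05) was above every control.

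The mean of Gdf15 was 9.14 ± 0.268 with after NHD plasma (SD, n = 6) and 12.76 ± 0.0601 with control plasma (SD, n = 3), a difference of -3.62 ± 0.61 (standard error), or 12.3-fold lower. Among the differences of all 29214 probe sets it ranked 6 from the lowest. Phenylephrine differed from control plasma by -2.72 ± 0.79, which is 6.58-fold. Before NHD plasma, with a mean of 11.40 ± 1.53 (SD, n = 6), differed from control plasma by -1.36 ± 0.61, and after NHD plasma differed from before NHD plasma by -2.26 ± 0.50, or 4.8-fold. That SD of 1.53 exceeded the before NHD SD of 99.7% of all probe sets. Without the before and after samples numbered 4, the Gdf15 difference of after over before NHD was -2.71, and without before replicate 5 it was -1.93. The difference of before NHD from control plasma was -0.91 without before replicate 4 and -1.69 without before replicate 5. In after over before NHD, Gdf15 also ranked 4 from the lowest of all probe sets. The only comparison of Gdf15 that shares no array with after NHD over control plasma is phenylephrine over before NHD. The fit still pools the spread of all 4 groups, so its p-value is not fully independent of the choice. There Gdf15 differed by -1.36 ± 0.71 and did not pass (limma, adjusted p = 0.314), with overlapping groups.

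**Figure D1:**
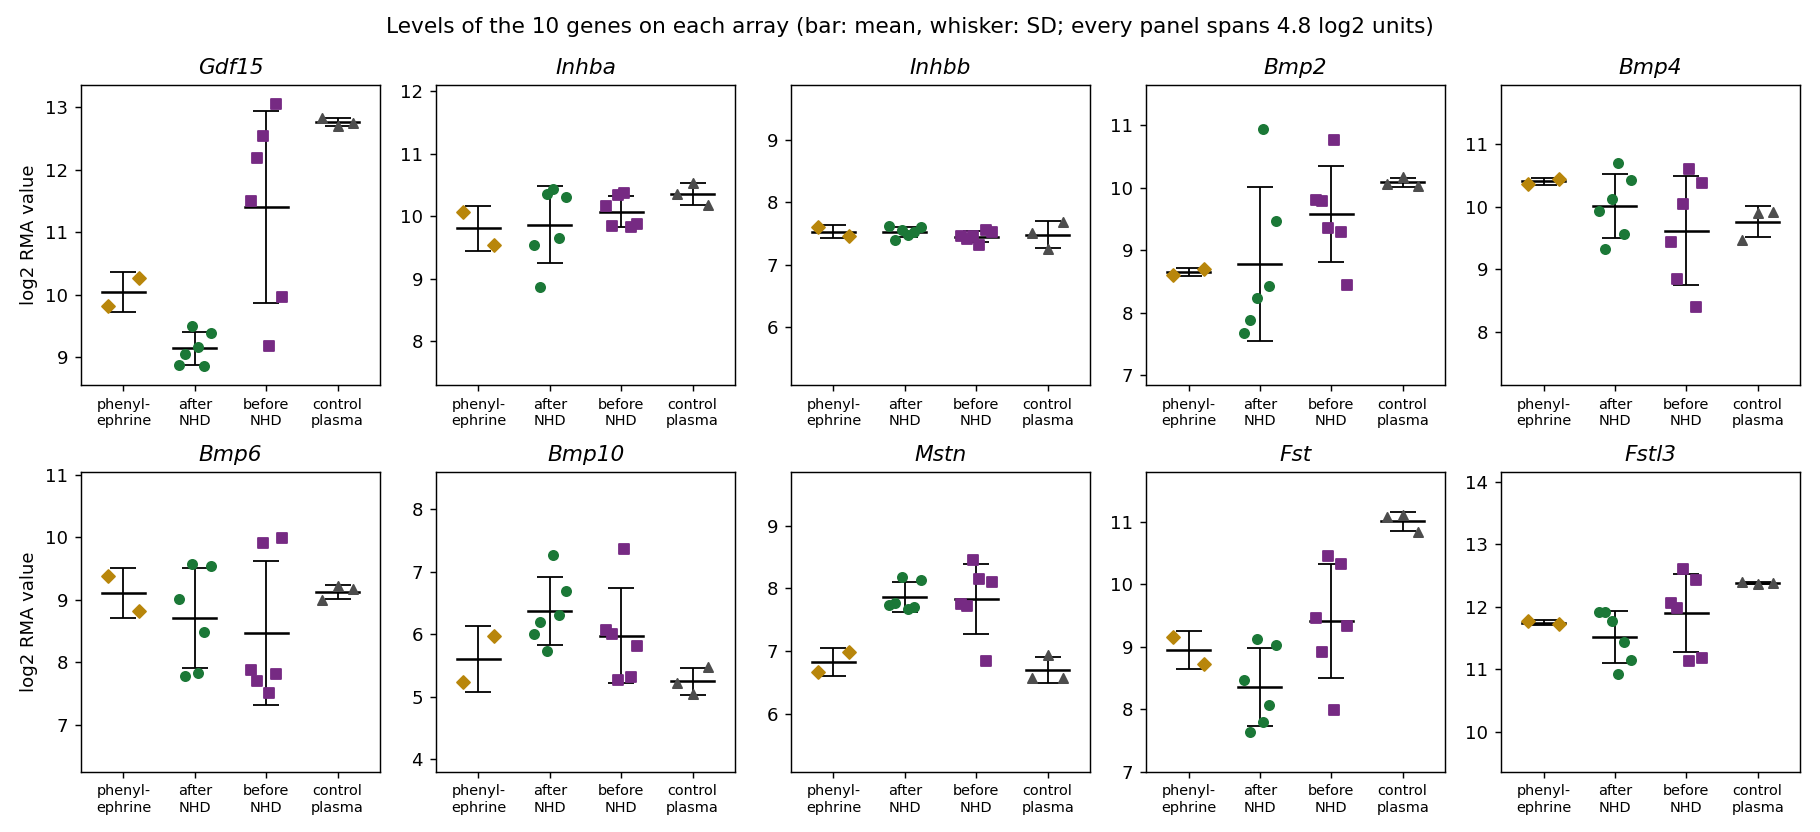
Level of each of the 10 genes on each array, as log2 values, with phenylephrine (2 arrays), after NHD (6), before NHD (6) and control plasma (3) from left to right. Horizontal bars are group means, whiskers are SDs, and every panel spans the same number of log2 units; Gdf15 ran from 8.85 to 13.05 over all arrays, whereas Inhbb stayed between 7.26 and 7.67.

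The promoters of Gdf15 and of Fstl3, which was also lower with after NHD plasma, are shown with that of Bmp10, which was higher, so that the sequence just before their starts can be read beside the values. RefSeq sequences of the GRCr8 build held a window for 7 of the 10 members, 8 windows in all, and 250 bases before each annotated start are printed 5′ to 3′ on the gene's strand, with motif matches in capitals. Gdf15 has 2 annotated starts.
Gdf15 upstream start, chr16:18838186-18838435, plus strand: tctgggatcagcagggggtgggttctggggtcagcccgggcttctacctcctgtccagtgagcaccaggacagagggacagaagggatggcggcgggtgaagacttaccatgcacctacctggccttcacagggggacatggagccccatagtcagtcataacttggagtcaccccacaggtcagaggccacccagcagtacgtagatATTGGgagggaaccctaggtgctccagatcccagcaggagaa
Gdf15 downstream start, chr16:18839015-18839264, plus strand: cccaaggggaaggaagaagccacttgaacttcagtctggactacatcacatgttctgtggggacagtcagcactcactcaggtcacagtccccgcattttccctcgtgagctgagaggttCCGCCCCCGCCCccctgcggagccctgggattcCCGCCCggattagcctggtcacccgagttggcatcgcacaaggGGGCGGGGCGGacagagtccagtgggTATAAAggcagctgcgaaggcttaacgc
Fstl3, chr7:10579845-10580094, minus strand: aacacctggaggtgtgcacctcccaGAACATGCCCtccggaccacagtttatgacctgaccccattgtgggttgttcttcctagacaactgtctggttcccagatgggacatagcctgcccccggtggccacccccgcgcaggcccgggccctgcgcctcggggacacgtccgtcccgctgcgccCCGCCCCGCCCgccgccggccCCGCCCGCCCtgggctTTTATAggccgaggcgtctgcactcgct
Bmp10, chr4:121429125-121429374, plus strand: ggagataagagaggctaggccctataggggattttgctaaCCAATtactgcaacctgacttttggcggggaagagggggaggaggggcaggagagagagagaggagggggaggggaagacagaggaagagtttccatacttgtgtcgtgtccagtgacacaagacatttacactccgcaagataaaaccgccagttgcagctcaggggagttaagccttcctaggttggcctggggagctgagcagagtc
The window at the downstream start of Gdf15 and that of Fstl3 both matched the TATA box letters 28 to 23 bases before the start. On the gene's strand they read TATAAA in Gdf15 and TTTATA in Fstl3, where the match is on the opposite strand. Both windows held GC boxes, 5 matches in Gdf15 and 4 in Fstl3, some of them overlapping each other. Fstl3 also held 1 repeat unit of the p53 response element, 225 to 216 bases before the start. The upstream window of Gdf15 held a CCAAT box 42 to 38 bases before the start, and Bmp10 held a CCAAT box 210 to 206 bases before it. These motifs were not particular to the lower members. Among the windows not printed, that of Inhba held a TATA box 40 to 35 bases before the start. Those of Inhbb, Bmp4 and Bmp6 held GC boxes, and Inhba, Inhbb, Bmp4 and Bmp6 passed in no comparison.

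Both strands were searched for 9 motifs, and over all 33469 windows of the same length the letters TATAAA were found in 12.9%, the CCAAT box in 34.0% and GGGCGG, which makes a GC box, in 30.5%. The AP-1 site TGACTCA was found in 4.05%, the cyclic AMP element TGACG in 18.2%, the E-box CACGTG in 5.59%, the CHOP-ATF4 element TGATGCAA in 0.693%, the BMP-responsive Smad element GGCGCC in 8.69% and the p53 repeat unit, searched by name, in 6.64%. In the 4 printed windows, letters of the other 5 motifs were not found. A match describes the letters and shows no binding.

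Both antagonists were lower with after NHD plasma than with control plasma, as Gdf15 was. Fst, which neutralises activins and myostatin, measured 9.16 and 8.73 log2 units in phenylephrine cultures. Its lowest, median and highest values were 7.64, 8.27 and 9.12 in after NHD cultures and 7.99, 9.39 and 10.44 in before NHD cultures, and the control cultures had 11.07, 11.11 and 10.83. Every array of the other 3 groups lay below every control array. Fst fell by 2.65 ± 0.44 with after NHD plasma relative to control plasma, which is 6.28-fold (limma, adjusted p = 0.000757), and the call was kept in all 27 alternative settings. It fell by 2.06 ± 0.57 with phenylephrine relative to control plasma (limma, adjusted p = 0.0195), a call lost without either phenylephrine array (adjusted p = 0.0803 and 0.146) and without control replicate 1 (0.0549).

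With before NHD plasma, Fst fell by 1.59 ± 0.44 relative to control plasma (limma, adjusted p = 0.0484). This call was lost in 17 of 27 settings, among them those without before replicate 4 (-1.31, adjusted p = 0.0616) and without before replicate 6 (-1.58, adjusted p = 0.0855). Without before replicate 5 it was kept (-1.78, adjusted p = 0.0116). Between after and before NHD, Fst differed by -1.06 ± 0.36 and did not pass (limma, adjusted p = 0.132). It passed without before replicate 4 (-1.34, adjusted p = 0.0147).

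Fstl3, a follistatin relative that binds activins and myostatin and is made by heart muscle, moved less. Phenylephrine cultures had 11.77 and 11.72 log2 units. The lowest, median and highest Fstl3 values were 10.92, 11.59 and 11.91 in after NHD cultures and 11.13, 12.02 and 12.60 in before NHD cultures, against 12.40, 12.37 and 12.37 in control cultures. After NHD and phenylephrine arrays lay below every control array, and before NHD arrays lay on both sides of them. Fstl3 fell by 0.87 ± 0.30 with after NHD plasma relative to control plasma, or 1.82-fold (limma, adjusted p = 0.0398). That call was lost without any 1 of the control arrays (adjusted p = 0.083 to 0.117) and without after replicate 4, 5 or 6 (0.0685, 0.0643 and 0.0745). With phenylephrine the difference from control plasma was -0.64 ± 0.39 (adjusted p = 0.269), and with before NHD plasma it was -0.48 ± 0.30 (adjusted p = 0.324).

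Mstn, which restrains muscle growth and is a ligand that follistatins bind, was higher in both uremic plasma groups than with control plasma. It measured 6.66 and 6.99 log2 units with phenylephrine. Its lowest, median and highest values were 7.66, 7.75 and 8.19 with after NHD plasma and 6.83, 7.93 and 8.45 with before NHD plasma, while control cultures had 6.57, 6.93 and 6.57. All after NHD arrays lay above all control and phenylephrine arrays. Of the before NHD arrays, replicate 5 (6.83) lay within the control range and the other 5 lay above it. Mstn rose by 1.17 ± 0.25 with after NHD plasma (limma, adjusted p = 0.00331) and by 1.14 ± 0.25 with before NHD plasma (limma, adjusted p = 0.0273), each relative to control plasma, which is 2.25-fold and 2.21-fold.

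Between after and before NHD plasma Mstn differed by 0.03 ± 0.21, and without before replicate 5 by -0.17. The before NHD call was lost without control replicate 1 or 3 (adjusted p = 0.156 and 0.152) and, by a small margin, without before replicate 2 or 6 (0.0532 and 0.0534). Without before replicate 5 the difference from control plasma was 1.35 (adjusted p = 0.000226). With phenylephrine Mstn differed from before NHD plasma by -1.01 ± 0.29 (limma, adjusted p = 0.0633) and from after NHD plasma by -1.04 ± 0.29 (adjusted p = 0.122). Neither passed over all probe sets, although every phenylephrine array lay below every after NHD array. Without before replicate 5, both comparisons passed (-1.21 with adjusted p = 0.00445, and -1.04 with adjusted p = 0.0175).

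Bmp10, a ligand made almost only by heart muscle, had low values throughout, with a mean level at percentile 30.6 of all probe sets. Phenylephrine cultures had 5.24 and 5.97 log2 units. The lowest, median and highest Bmp10 values were 5.74, 6.25 and 7.27 in after NHD cultures and 5.28, 5.91 and 7.37 in before NHD cultures, against 5.23, 5.04 and 5.48 in control cultures. All after NHD arrays lay above all control arrays, and the samples numbered 4 were the highest of each NHD group (7.27 after and 7.37 before). Bmp10 rose by 1.12 ± 0.39, or 2.17-fold, with after NHD relative to control plasma (limma, adjusted p = 0.0397). It did not pass without any 1 of the control arrays (adjusted p = 0.0754 to 0.117) or without after replicate 2, 4, 5 or 6 (0.0521, 0.067, 0.0571 and 0.0706). With before NHD plasma the difference was 0.73 ± 0.39 (adjusted p = 0.249), and without before replicate 4 it was 0.45 (adjusted p = 0.363).

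Bmp2, a ligand of valve and muscle development in the heart, measured 8.61 and 8.70 log2 units in phenylephrine cultures. Its lowest, median and highest values were 7.69, 8.34 and 10.94 in after NHD cultures and 8.45, 9.58 and 10.77 in before NHD cultures, while control cultures had 10.07, 10.17 and 10.04. Of the after NHD arrays, 5 lay below every control array and replicate 4 lay above them. The after NHD SD of 1.23 exceeded that of 99.9% of probe sets. Bmp2 differed by -1.31 ± 0.57 with after NHD relative to control plasma and did not pass (limma, adjusted p = 0.0978). Without after replicate 4 the difference was -1.75 and passed (adjusted p = 0.00601). With phenylephrine Bmp2 differed from control plasma by -1.44 ± 0.74 (adjusted p = 0.189), both arrays being lower than every control.

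Bmp4 and Bmp6, ligands of the main BMP branch, varied widely within the NHD groups. Bmp4 had 10.37 and 10.44 log2 units with phenylephrine, 9.33, 10.03 and 10.69 as lowest, median and highest with after NHD plasma, 8.40, 9.74 and 10.61 with before NHD plasma, and 9.47, 9.90 and 9.91 with control plasma. Bmp6 had 9.39 and 8.83 with phenylephrine, 7.79, 8.76 and 9.58 with after NHD plasma, 7.51, 7.84 and 9.99 with before NHD plasma, and 8.997, 9.21 and 9.17 with control plasma. Neither passed in any of the 6 comparisons, and both NHD groups overlapped the controls. For Bmp4 both phenylephrine arrays lay above every control array, a difference of 0.64 ± 0.53 (limma, adjusted p = 0.424). The Bmp6 range of 2.48 log2 units among before NHD arrays came from replicates 3 and 6 (9.91 and 9.99), the other 4 arrays lying between 7.51 and 7.88.

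The activin subunits did not pass in any comparison. Inhba, the subunit of activin A, had 10.06 and 9.54 log2 units with phenylephrine, 8.87, 9.98 and 10.44 as lowest, median and highest with after NHD plasma, 9.83, 10.02 and 10.36 with before NHD plasma, and 10.35, 10.52 and 10.17 with control plasma. Its after NHD arrays were spread widely, with an SD of 0.615 that exceeded that of 97.6% of probe sets. The subunit of activin B, Inhbb, stayed between 7.26 and 7.67 on all 17 arrays, with an SD among before NHD arrays (0.0834) larger than that of only 2.1% of probe sets. The largest difference of Inhba was -0.55 ± 0.36, with phenylephrine relative to control plasma (limma, adjusted p = 0.31). For Inhbb the differences in the 6 comparisons ran from -0.03 to 0.08.

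**Figure D2:**
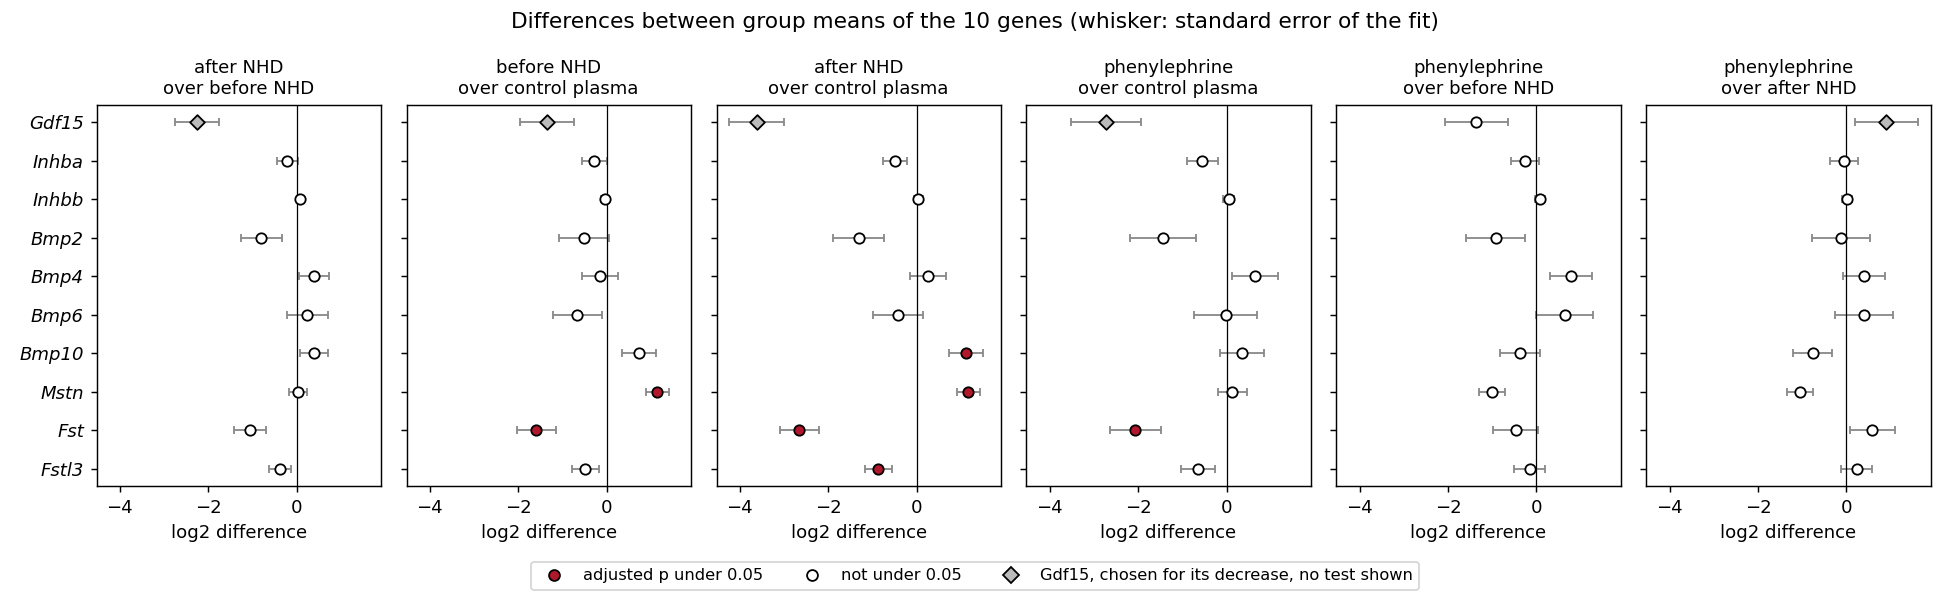
Difference between group means of each of the 10 genes in the 6 comparisons, in log2 units with the standard error as whisker; red points passed at an adjusted p of 0.05 (limma), open points did not, and grey diamonds are Gdf15 where no test applies. Points right of 0 are higher in the group named before "over"; Fst lay at -2.65, Mstn at 1.17 and Bmp10 at 1.12 in after NHD over control plasma.

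Counted over the comparisons, most calls fell in after NHD over control plasma. Of the 9 members besides Gdf15, 4 passed there (Mstn and Bmp10 higher, Fst and Fstl3 lower), where 28.2% of all probe sets passed, and the same 4 did not overlap with the controls, as 33.4% of all probe sets did not. Before NHD over control plasma gave 2 calls (Mstn higher, Fst lower) against 4.93% of all probe sets, and 1 member, Fst, that did not overlap, against 8.39%. Phenylephrine over control plasma gave 1 call, Fst, against 18.7%, and 5 members without overlap besides Gdf15, against 56.9% of all probe sets in that comparison of 2 arrays with 3. That last count is near what all probe sets showed. Over the 14506 genes, each read by 1 probe set like the members, 16.7% were higher and 16.3% lower in after NHD over control plasma. These gene shares were 3.75% and 2.09% in before NHD over control plasma, and 11.7% and 11.9% in phenylephrine over control plasma. No test of any of these shares was made.

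After NHD over before NHD gave 0 member calls with limma, against 0.397% of all probe sets, and 1 of the 9 besides Gdf15, Fst, at an unadjusted p under 0.05. All 10 members overlapped there, where 0.644% of probe sets did not. Phenylephrine over before NHD gave 0 calls against 4.34%, with 1 member, Mstn, at an unadjusted p under 0.05, and 0 members without overlap against 16.5%. Phenylephrine over after NHD gave 0 calls against 0.979%, again with Mstn at an unadjusted p under 0.05, and 2 members without overlap, Gdf15 and Mstn, against 24%.

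In size, the median absolute difference of the 10 members was 0.99 log2 units in after NHD over control plasma, against 0.24 over all probe sets, and 0.39 in after NHD over before NHD, against 0.12. These medians include Gdf15, which was chosen for its difference. The comparisons with control plasma share the same 3 arrays, so that their values are given side by side and not as separate evidence.

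Across the 17 arrays Fst had the pattern most like Gdf15 among the members, with a Pearson r of 0.881, higher than the r of 97.2% of 14506 genes. Fstl3 followed at 0.811, Bmp10 ran opposite at -0.677 and Bmp4 at -0.531. These correlations span the groups and are a description with no test. All genes share the arrays, 13.7% of genes had an r above 0.8 in size with Gdf15, and Gdf15 itself had an r of -0.92 with the first principal component. Within the 6 before NHD arrays alone, Gdf15 and Fstl3 had an r of 0.952 (exact two-sided permutation p = 0.0111) and a rho of 0.886 (exact permutation p = 0.0333). After adjustment over 18 relations these became 0.2 and 0.463, so the relation did not pass, and without replicates 4 and 6, the 2 farthest, r was 0.69. Gdf15 and Fst had an r of 0.8 (exact permutation p = 0.0625, adjusted p = 0.225) and a rho of 0.771 (exact permutation p = 0.103, adjusted p = 0.463) on these arrays. Without the same 2 replicates r was 0.642. On the same arrays Bmp4 and Bmp10 ran opposite to Gdf15 about as closely. Bmp4 had an r of -0.815 (exact permutation p = 0.0611, adjusted p = 0.225) and a rho of -0.829 (exact permutation p = 0.0583, adjusted p = 0.463), and its r was -0.399 without those replicates. Bmp10 had an r of -0.809 (exact permutation p = 0.0375, adjusted p = 0.225) and a rho of -0.771 (exact permutation p = 0.103, adjusted p = 0.463), with -0.847 without them. Within the after NHD arrays Fstl3 did not follow Gdf15, with an r of -0.24 (exact permutation p = 0.61, adjusted p = 0.732) and a rho of -0.257 (exact permutation p = 0.658, adjusted p = 0.79), and 0 of the 18 relations passed.

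**Figure D3:**
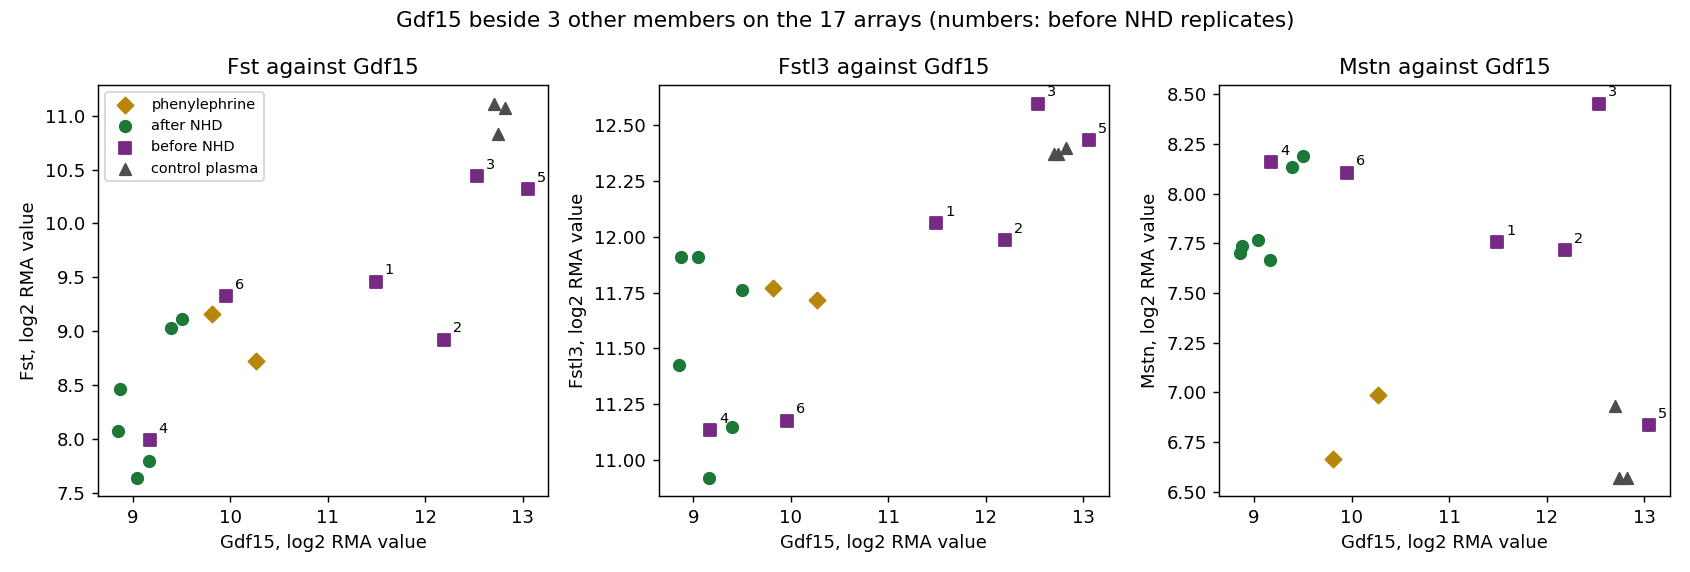
Level of Fst, Fstl3 and Mstn (vertical axes) against Gdf15 (horizontal axes) on each of the 17 arrays, in log2 units, with the before NHD replicates numbered. In the Fst panel the control arrays lie at the upper right and most after NHD arrays at the lower left, with before NHD replicates 4 and 6 near the after NHD arrays and 3 and 5 nearest the controls; in the Mstn panel before replicate 5 (6.83) lies with the controls.

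The genes most like Gdf15 over the 17 arrays were Slc35e3 (r = 0.984), a transporter-like membrane protein, Mthfs of folate metabolism (0.978), Gnptg (0.978), a subunit of the enzyme that tags lysosomal proteins, Gnpda2 of amino sugar metabolism (0.975), Pgpep1 (0.974), a peptidase, Atp6v0b (0.972), a subunit of the proton pump that acidifies lysosomes, Aspscr1 (0.971) and Lmbrd1 (0.97), which carries cobalamin out of lysosomes. The least like were Med12l (-0.97), Lgals1 (-0.969), Mmp17 (-0.967) and Bbs1 (-0.967). Slc35e3, the most alike, averaged 9.75 with phenylephrine, 9.34 after NHD, 10.31 before NHD and 11.20 with control plasma.

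Pgpep1 is also a neighbour of Gdf15 on chromosome 16. In the order of RefSeq genes, Mk1 lies next to Gdf15 and Pgpep1 beyond it. Pgpep1 averaged 10.06 with after NHD plasma and 11.10 with control plasma, a difference of -1.05 ± 0.15, and Mk1 averaged 6.60 and 7.98, a difference of -1.38 ± 0.28, with an r of 0.915 with Gdf15. On the other side the nearest measured gene, Ssbp4, differed the opposite way, at 9.75 with after NHD and 8.86 with control plasma, a difference of 0.89 ± 0.23 and an r of -0.664. Of the 8 measured neighbours, 4 on each side, Ell (0.03 ± 0.23) and Kxd1 (0.17 ± 0.09) differed least between these groups. Pgpep1 was named by its likeness to Gdf15, and the neighbours were looked at after its values were seen, so these differences are a description with no test.

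Bmp6 and the fibroblast markers of the cultures were high on the same NHD arrays, but this likeness was not particular to fibroblasts. Over all 17 arrays Bmp6 had an r of 0.888 with the fibroblast mean and 0.867 with the smooth muscle and pericyte mean. It was 0.806 with macrophage and leukocyte markers, 0.738 with epicardium, 0.553 with endothelium, -0.331 with myocyte and -0.454 with erythroid markers. These values span the groups and are a description with no test. The mean of 10 fibroblast genes, among them collagens, Dcn, Postn and Pdgfra, was 10.03 and 9.79 log2 units in phenylephrine cultures, 7.49 to 9.75 in after NHD cultures, 7.32 to 9.89 in before NHD cultures and 8.33 to 8.47 in control cultures. None of the 10 lay near the floor of the scale on every array, Lum being the lowest, down to 4.27 after NHD and 4.14 before NHD, and 0 of the 10 passed in any comparison. Within the after NHD arrays Bmp6 had an r of 0.973 with this mean (exact two-sided permutation p = 0.00417, adjusted p = 0.0556 over 20 relations) and a rho of 0.943 (exact permutation p = 0.0167, adjusted p = 0.111). The relation did not pass after adjustment, and r was 0.962 without replicates 2 and 4, the 2 farthest. In the before NHD group the arrays fell into separate sets, replicates 3 and 6 with fibroblast means of 9.78 and 9.89 and Bmp6 at 9.91 and 9.99, and the other 4 with means of 7.32 to 7.86 and Bmp6 at 7.51 to 7.88, so that no r is given.

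Fst had an r of 0.933 with the fibroblast mean within the after NHD arrays (exact permutation p = 0.0167, adjusted p = 0.111) and a rho of 0.943 (exact permutation p = 0.0167, adjusted p = 0.111), and an r of 0.979 without replicates 2 and 4. Across groups the level of Fst did not follow that mean: both phenylephrine arrays had higher fibroblast means than every control array and lower Fst. Over all 17 arrays Fst had an r of 0.122 with the fibroblast mean, 0.682 with the mean of 6 smooth muscle and pericyte markers and -0.923 with the mean of the myocyte markers, as descriptions that span the groups. The smooth muscle and pericyte mean was 10.52 and 10.41 with phenylephrine, 9.28 to 10.33 after NHD, 9.46 to 10.80 before NHD and 10.29 to 10.40 with control plasma. Of its 6 genes Cnn1, a calponin of smooth muscle, fell with after NHD relative to control plasma (-1.16 ± 0.29, limma, adjusted p = 0.00859). With phenylephrine relative to control plasma Acta2, smooth muscle actin, fell (-0.40 ± 0.12, adjusted p = 0.0263) and Rgs5 of pericytes rose (1.65 ± 0.35, adjusted p = 0.00452). These calls were lost without control replicate 1 for Cnn1 (limma, adjusted p = 0.0526), without phenylephrine replicate 2 for Rgs5 (0.0562), and without either phenylephrine array or control replicate 1 or 3 for Acta2 (0.071 to 0.143). The part of these markers in the levels of Bmp6 and Fst was not tested. With after NHD plasma relative to control plasma, myocyte markers ran in the direction of Mstn and Bmp10 and opposite to Fst. There 5 of 10 rose and 0 fell, where 16.7% of all genes were higher. The myocyte mean was 12.89 to 12.90 with phenylephrine and 12.97 to 13.14 with after NHD plasma. It was 12.67 to 13.03 with before NHD plasma and 12.54 to 12.59 with control plasma. With phenylephrine relative to control plasma 3 of 10 rose, where 11.7% of all genes were higher. Mstn differed there by only 0.13 ± 0.33 (limma, adjusted p = 0.813) and Bmp10 by 0.36 ± 0.50 (adjusted p = 0.659). Over all 17 arrays Gdf15 had an r of -0.843 with the myocyte mean and Fstl3 of -0.733, whereas Bmp10 had 0.701 and Mstn 0.606. These too are descriptions that span the groups. The part of the myocyte markers in the differences of Gdf15, Mstn, Bmp10, Fst and Fstl3 was not tested either.

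**Figure D4:**
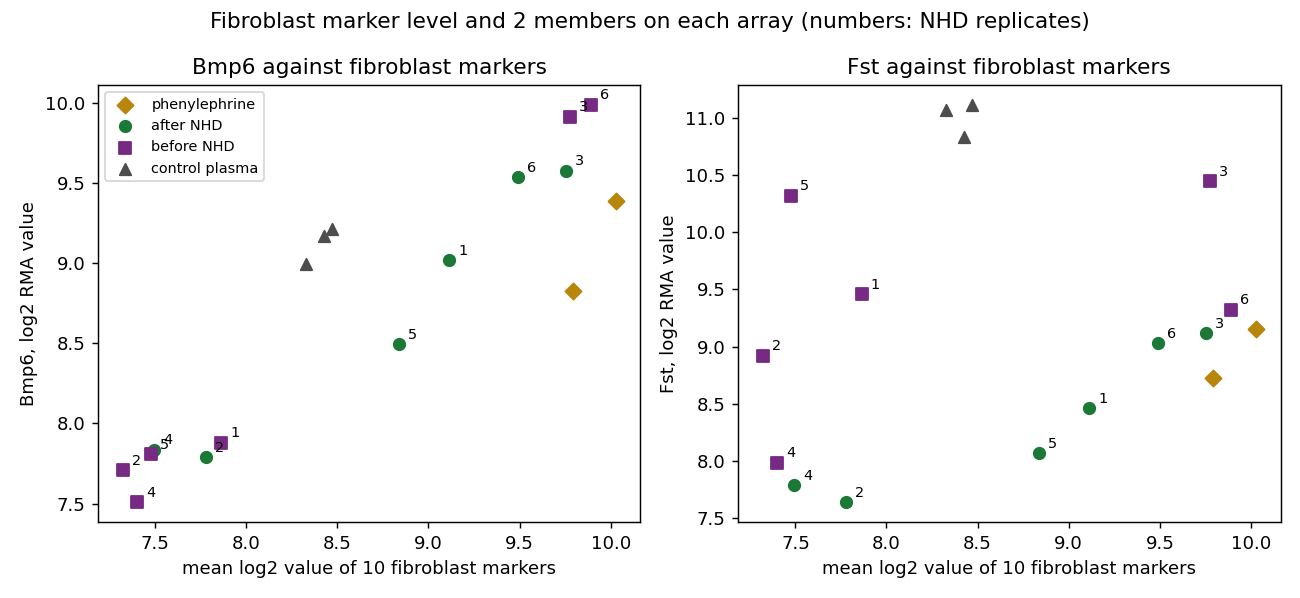
Level of Bmp6 and Fst (vertical axes) against the mean of 10 fibroblast markers (horizontal axes) on each array, in log2 units, with replicate numbers of the NHD groups. Among after NHD arrays Bmp6 is higher where the markers are higher (r = 0.973), and it is at 9.91 and 9.99 in before NHD replicates 3 and 6, whereas the control arrays hold the highest Fst values (10.83 to 11.11) at fibroblast means of 8.33 to 8.47.

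The rest of the pathway was read from lists chosen for their roles. Over all 14506 genes, 16.7% were higher and 16.3% lower with after NHD than with control plasma. Among 16 other measured ligands 1 rose and 2 fell. Bmp7, a BMP best known from kidney and bone, rose by 2.16 ± 0.38 log2 units, with means of 10.87 after NHD and 8.71 with control plasma (limma, adjusted p = 0.00104), and it kept that call in all 27 settings. Gdf9, an oocyte factor, fell by 0.90 ± 0.23 and Gdf2, which encodes BMP9, by 0.32 ± 0.10, both at low levels. Gdf2 lost its call without control replicate 1 or 3 (limma, adjusted p = 0.0505 and 0.102) and Gdf9 without control replicate 3 (0.0607).

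Among 16 receptors and coreceptors 1 rose and 2 fell. Acvr1b, the type I activin receptor ALK4, rose by 0.56 ± 0.14 (adjusted p = 0.00679), while Amhr2, the receptor of anti-Müllerian hormone, and Bmpr1b fell by 0.52 ± 0.14 and 0.48 ± 0.16. Of the Gdf15 receptor pair, Gfral averaged 3.63 to 3.78 over the 4 groups and Ret 5.60 to 6.05. Among 13 antagonists and modulators Nbl1, a secreted BMP antagonist, rose by 0.75 ± 0.12 (adjusted p = 0.000712) and Wfikkn1, which binds myostatin and Gdf11, fell by 0.26 ± 0.09 (adjusted p = 0.0463). Of 10 Smad mediators 0 rose and 3 fell: Smad5 of the BMP branch by 0.72 ± 0.15, Smad2 of the activin branch by 0.58 ± 0.12 and the shared partner Smad4 by 0.42 ± 0.10. Leaving out single arrays ended the calls of Wfikkn1 (12 arrays in turn, each phenylephrine array among them, limma, adjusted p = 0.0504 to 0.209), Bmpr1b (after replicates 2, 3 and 5 and control replicates 1 and 3, 0.0559 to 0.139) and Amhr2 (control replicate 3, 0.0719).

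Of 9 BMP target genes 0 rose and 3 fell. Id2 and Id4, inhibitors of basic helix-loop-helix factors, fell by 1.87 ± 0.35 and 1.45 ± 0.25 (adjusted p = 0.00129 and 0.00091), and the transcription factor Atoh8 fell by 0.67 ± 0.22. The Atoh8 call was lost without after replicate 4 or any 1 of the control arrays (limma, adjusted p = 0.0527 to 0.138). The most used readouts, Id1 and Id3, differed by -0.32 ± 0.17 and -0.51 ± 0.23 and did not pass (adjusted p = 0.184 and 0.108). Among 6 measured proteases that cut the precursors or their inhibitors, Pcsk6 rose by 1.61 ± 0.28 (adjusted p = 0.000843) and Tll1, a tolloid protease that cleaves the BMP antagonist chordin, fell by 1.14 ± 0.25. In medians, the BMP targets lay at -0.51 and the Smads at 0.07, beside -0.07 over all genes.

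Phenylephrine was set against the same 3 control arrays, so that its values stand beside those of after NHD plasma and are not separate evidence. Over all genes 11.7% were higher and 11.9% lower. Bmp7 rose by 2.30 ± 0.50 (limma, adjusted p = 0.00506), as 1 of 16 ligands. Acvr1b (1.12 ± 0.18) and Acvr2b (0.66 ± 0.19), a type II receptor of activin and myostatin, rose and Amhr2 fell by 0.66 ± 0.18, among 16 receptors. Nbl1 rose by 0.89 ± 0.16 and Wfikkn1 fell by 0.38 ± 0.12. Smad5 was the 1 Smad to pass and fell by 0.78 ± 0.19. Id2 fell by 2.46 ± 0.45 and Id4 by 1.30 ± 0.33. Pcsk6 rose by 2.13 ± 0.36 and Furin, the general proprotein convertase, by 0.92 ± 0.26, while Tll1 fell by 1.32 ± 0.33. Without phenylephrine replicate 1 the calls of Bmp7, Acvr2b, Amhr2, Wfikkn1, Smad5, Id4, Furin and Tll1 were lost. Without phenylephrine replicate 2 those of Acvr2b, Amhr2, Wfikkn1, Smad5, Id4 and Tll1 were lost. Control replicate 1 decided Acvr2b, Wfikkn1 and Furin, and control replicate 3 decided these and Amhr2. The highest adjusted p in these settings was 0.0587 for Bmp7, 0.144 for Acvr2b, 0.13 for Amhr2, 0.179 for Wfikkn1, 0.08 for Smad5, 0.0916 for Id4, 0.219 for Furin and 0.0956 for Tll1.

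The comparisons with before NHD plasma held few calls. Before NHD over control plasma, where 3.75% of genes were higher and 2.09% lower, had Nbl1 (0.64 ± 0.12) and Pcsk6 (1.02 ± 0.28) higher, and no ligand, receptor, Smad or BMP target from these lists passed with limma. Phenylephrine over before NHD, with 2.63% of genes higher and 3.14% lower, had Acvr1b higher (0.67 ± 0.16) and Id2 lower (-1.49 ± 0.40). The Nbl1 call of before NHD was lost without control replicate 1 or 3 (limma, adjusted p = 0.144 and 0.14) and the Pcsk6 call without any 1 of 13 arrays (0.051 to 0.183). In phenylephrine over before NHD, Acvr1b was lost without phenylephrine replicate 1 or 2 (0.439 and 0.0637) and Id2 without any 1 of 14 arrays (0.052 to 0.334). After over before NHD and phenylephrine over after NHD had 0 calls in the 6 lists of ligands, receptors, antagonists, Smads, BMP targets and proteases.

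Of 10 measured genes known as inducers or companions of Gdf15 in cell stress, 0 rose and 6 fell with after NHD relative to control plasma, where 16.3% of all genes fell. The list was written with the decreases of Cdkn1a, Mdm2 and Trib3 already known. Its count and median are therefore a description and not evidence of a shared decrease. The list median was -0.95 beside -0.07 over all genes. The 4 with the smallest p follow, and the calls of the others were lost in 3 and 9 of 27 settings. Cdkn1a, the cell cycle inhibitor p21, averaged 11.63 after NHD and 13.35 with control plasma. Mdm2, the p53 antagonist, averaged 9.70 and 11.51, Nfe2l2, the oxidative stress factor, 11.41 and 12.33, and Trib3, a target of the unfolded protein response, 6.91 and 8.03. The differences were -1.72 ± 0.22, -1.81 ± 0.29, -0.92 ± 0.14 and -1.12 ± 0.25. Atf4 and Atf3, which drive Gdf15 in the integrated stress response, averaged 10.70 and 9.04 after NHD, and 10.82 and 10.02 with control plasma, and did not pass (adjusted p = 0.651 and 0.251).

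With phenylephrine relative to control plasma 4 of the 10 stress genes fell, where 11.9% of all genes fell. They were Cdkn1a (-1.97 ± 0.29), Mdm2 (-1.91 ± 0.37), Nfe2l2 (-1.07 ± 0.18) and Ddit3, which encodes CHOP (-1.32 ± 0.38). With before NHD plasma Nfe2l2 fell by 0.58 ± 0.14 relative to control plasma. Cdkn1a was lower after than before NHD (-1.04 ± 0.18, limma, adjusted p = 0.0289) and lower with phenylephrine than before NHD (-1.29 ± 0.26, adjusted p = 0.0101). Without any 1 of 8 before or after NHD arrays the call between after and before NHD was lost (limma, adjusted p = 0.0692 to 0.0957), and without phenylephrine replicate 1 or 2 so was that of phenylephrine over before NHD (0.21 and 0.0866). Ddit3 was lost without control replicate 1 or 3 or either phenylephrine array (0.055 to 0.162), and Nfe2l2 with before NHD plasma without any 1 of the control arrays or before replicate 1, 2 or 6 (0.0564 to 0.162). The list was written with the decreases of Gdf15 and of Cdkn1a, Mdm2 and Trib3 already known and is not independent evidence of their direction.

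**Figure D5:**
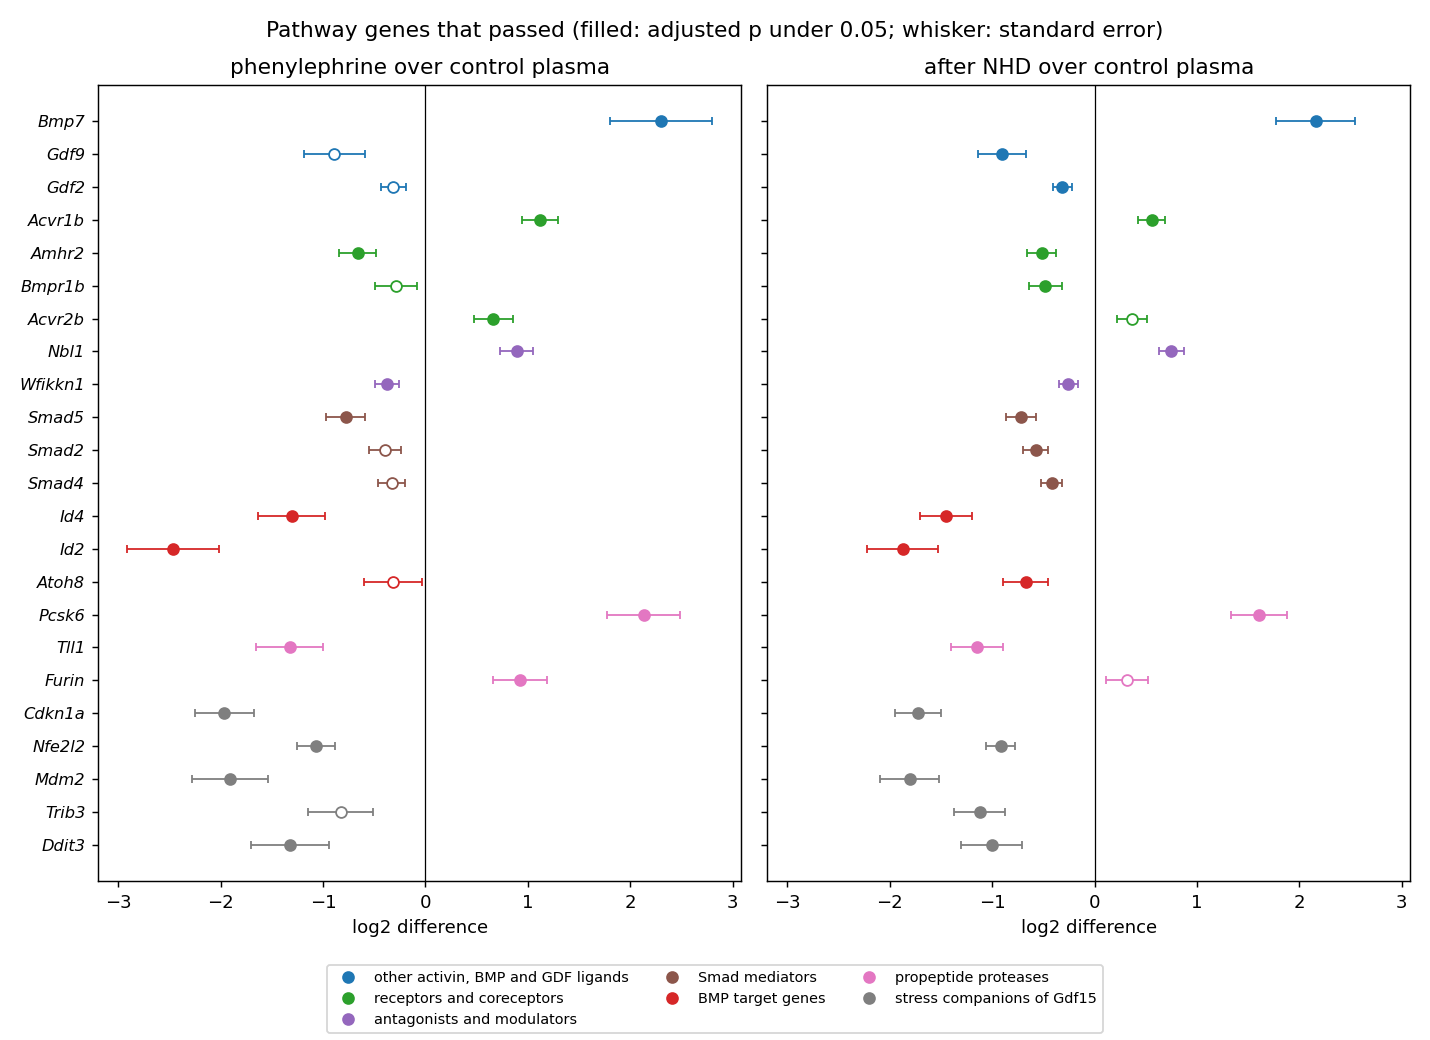
Log2 difference of the pathway genes that passed in phenylephrine over control plasma (left) and after NHD over control plasma (right), at most 4 per list and comparison, coloured by list, with standard errors as whiskers. Filled points had an adjusted p under 0.05; Bmp7 lay at 2.30 with phenylephrine and 2.16 after NHD, and Id2 at -2.46 and -1.87, and both panels share the control arrays.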

How the data were processed

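The deposited values are log2 expression values that the authors made with RMA, per the notes the submitters gave on processing. The method corrects background, makes the distributions of the arrays alike and summarises the probes of a probe set. A shift common to most genes is thereby taken out, and differences at low levels shrink. Neither the RMA version nor how probe sets were defined is given in the sources used here. No batch label was given. In 2 before NHD titles the replicate is numbered 2 times, and the later number was taken.

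The platform annotation named the probe sets: 15310 had 1 gene symbol, 323 had several and 13581 had none here. The probe set with the highest mean stood for its gene. Each of 29214 probe sets was fitted in limma 3.58.1 under R 4.3.3 (lmFit, then eBayes), all 17 arrays together, as 4 group means. The fit had 13 residual and 3.32 prior degrees of freedom. Benjamini-Hochberg adjustment of the two-sided p-values ran over all probe sets, with a threshold of 0.05, and passed, rose or fell means past it. Errors of differences are standard errors of the fit, which pools the spread of the 4 groups. The number of arrays limits the precision.

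The 10 members and the 7 pathway lists were chosen with earlier results of these data known. Named genes were the members, at most 4 genes per pathway list and comparison by smallest p among those that passed, the 8 genes most and the 4 least like Gdf15, and genes named for a role (Id1, Id3, Gfral, Ret, Atf3, Atf4) or a position beside Gdf15, which were picked after their values were seen. Markers of 7 cell types were chosen likewise. Names and promoter sequences came from RefSeq tables of rat assembly GRCr8. The procedure was tested on simulated data. Alternatives were fits of brighter probe sets, of 1 probe set per gene and of only the compared groups, renewed quantile normalization, a robust trended prior, weights per array, a block of replicate numbers, each array's SD as a term, omission of the samples numbered 4 or of any 1 array, and a random block, which was chosen after seeing the data.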

Additional observations from a re-analysis of the deposited data

How the results depend on the processing

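Of the 55 tested differences of members in 6 comparisons, those of Gdf15 with after NHD or control arrays being untested, recomputed under up to 27 alternatives, 1414 of the results kept their direction and side of the threshold or were uncalled both times, 23 gained a call, 42 lost one and 0 called values changed sign. Where 1 phenylephrine array was left out, the other was taken to vary like the other groups. Averaging probe sets was not run, since each member has 1, and Bmp10 has no value among the brighter probe sets. The counts of members called leave out Gdf15 except in phenylephrine over before NHD. They depended on the setting, and the cause was not tested. After over before NHD, 0 as reported, had 1 without the samples numbered 4 and 0 to 1 with single arrays left out. Before NHD over control plasma, 2 as reported, had 0 in a fit of the 2 groups, 0 with array SD as a term, 1 without the samples numbered 4, and 0 to 2 with single arrays left out. After NHD over control plasma, 4 as reported, had 1 with array SD as a term and 2 to 4 with single arrays left out. Phenylephrine over control plasma, 1 as reported, had 4 in a fit of the 2 groups, 3 with array weights, 2 without the samples numbered 4, and 0 to 1 with single arrays left out. Phenylephrine over before NHD, 0 as reported, had 1 with brighter probe sets, with 1 probe set per gene and with array SD as a term, 2 with array weights and 2 with the replicate block, and 0 to 1 with single arrays left out. Phenylephrine over after NHD, 0 as reported, had 1 in a fit of the 2 groups and with array weights, and 0 to 1 with single arrays left out.

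With array SD as a term Mstn no longer passed after NHD (0.76, adjusted p = 0.0554), nor did Fstl3 (-0.57, adjusted p = 0.313) and Bmp10 (1.05, adjusted p = 0.172), each against control plasma. Gdf15 in phenylephrine over before NHD passed with array weights (-1.65, adjusted p = 0.0186). Of the pathway genes, 13 of 22 calls in after NHD over control plasma and 7 of 16 in phenylephrine over control plasma held in every setting that could be run, against 0 of 3 in before NHD over control plasma, 0 of 1 in after over before NHD and 0 of 3 in phenylephrine over before NHD.

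Same-numbered before and after NHD arrays deviated together with correlations of -0.0254 to 0.599 (median 0.3365), 4 of 6 above 0.1 and 3 of 6 best with their own number, and the labels state no pairing. With the replicate block, member calls, counted in the same way, were 0, 2, 5, 1, 2 and 0 in the 6 comparisons in the order above, where all probe sets passed at 1.08, 11.4, 31, 25.1, 8.38 and 2.38%.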
